A study of Mus musculus with 6 samples.

Results

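The genes described here encode enzymes that add methyl groups to histones or remove them, and they were measured as messenger RNA in the ventricles of mouse hearts at postnatal day 14 (P14) and postnatal day 1 (P1). Members were chosen by symbol from the table of counts: the Kdm, Setd, Smyd, Suv39h, Suv420h, Ehmt, Prdm and Prmt genes, with Nsd1, Whsc1, Whsc1l1, Dot1l and Ash1l added and Kdm2b and Uty left out. This gave 57 of the 14495 genes in the table, and all 57 passed the filter on low counts. The P14 group and the P1 group each consisted of 3 libraries from male C57BL/6 mice, and each library was made from 3 pooled hearts, 9 hearts for each age, with no treatment. The protocol describes ventricles with the septum kept and the atria removed, whereas the tissue label names the left ventricle. Ventricular tissue holds heart muscle cells, endothelial cells, fibroblasts and blood cells, and in such samples fewer cells of a type and less RNA per cell cannot be told apart.

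Histone methylation is written on lysines by enzymes with a SET domain and by DOT1L, and on arginines by the protein arginine methyltransferases (PRMTs). Lysine methylation is removed by the amine oxidases of the LSD1 family and by the Jumonji C (JmjC) demethylases. Methylation of histone H3 at lysine 4 (H3K4), lysine 36 (H3K36) and lysine 79 (H3K79) is known mainly from active genes. Methylation of H3 at lysine 9 (H3K9) and lysine 27 (H3K27), and trimethylation of histone H4 at lysine 20 (H4K20), are known mainly from silent chromatin. In the heart, the muscle-restricted Smyd1 is needed for development of the ventricle in mice, and loss of Dot1l from mouse heart muscle leads to dilated cardiomyopathy. Several members also methylate proteins other than histones, and some of the PR domain (Prdm) genes encode DNA-binding factors with no known enzyme activity.

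At P14 the transcripts of 5 members rose and those of 12 fell, while 40 members did not pass the test (edgeR's quasi-likelihood test, Benjamini-Hochberg adjusted p under 0.05 over 14301 tested genes). The enzymes of H3K9 trimethylation in pericentric heterochromatin, Suv39h1 and Suv39h2, fell 3.28-fold and 3.4-fold, and Smyd5, Prmt6 and Whsc1 fell 3.22-fold, 2.86-fold and 2.23-fold. Setd8 and Dot1l, which methylate H4K20 and H3K79, rose 1.96-fold and 1.89-fold, and Prdm1, a zinc finger repressor, rose 5.18-fold from a low level. The fall of Suv39h2 was to a low level, 4 to 7 reads per P14 library. Suv39h2 and Prdm1 each passed the filter on low counts only through the age where they were higher, so the sizes of their changes are uncertain. The remaining called members changed by less than 2-fold. Of all genes tested, 43.8% were called in either direction, 21.8% as higher and 22% as lower at P14. Among the members the shares were 29.8% in either direction, 8.77% higher and 21.1% lower. Counting only called changes of at least 2-fold, 6 members (10.5%) changed, 1 of them higher and 5 lower, against 27.7% of all genes. The 5 of 57 members that fell at least 2-fold stand beside 1932 of 14301 genes (13.5%). The 1 of 57 that rose at least 2-fold stands beside 2035 of 14301 genes. The median log2 fold change (P14 over P1) was −0.17 over the members and −0.01 over all genes, and the median size of the change without its sign was 0.40 and 0.61. The median of the members was −0.053 without P14 replicate 1 and −0.067 without P1 replicate 3. The number of members that rose was 3 without P14 replicate 2 or P1 replicate 1, and the number that fell was 8 without P14 replicate 1 or P14 replicate 3.

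The sequences before the starts of 4 of these genes are shown because they had the largest falls and the largest rises among the lysine methyltransferases outside the PR domain group. They are the bases upstream of each gene's start from RefSeq (GRCm38.p6), 5′ to 3′ on the gene's strand, with CCAAT boxes (CCAAT or its reverse complement ATTGG) and GC boxes (GGGCGG or CCGCCC) in capitals. The windows lie at chrX:8074761-8075010 on the minus strand for Suv39h1, chr2:3475032-3475236 on the minus strand for Suv39h2, chr5:124439680-124439929 on the plus strand for Setd8 and chr10:80754953-80755202 on the plus strand for Dot1l.
Suv39h1: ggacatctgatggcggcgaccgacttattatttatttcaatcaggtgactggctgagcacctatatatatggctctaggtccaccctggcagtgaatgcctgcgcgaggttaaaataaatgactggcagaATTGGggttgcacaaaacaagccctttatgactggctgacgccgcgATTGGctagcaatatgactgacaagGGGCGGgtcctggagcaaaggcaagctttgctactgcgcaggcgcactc
Suv39h2: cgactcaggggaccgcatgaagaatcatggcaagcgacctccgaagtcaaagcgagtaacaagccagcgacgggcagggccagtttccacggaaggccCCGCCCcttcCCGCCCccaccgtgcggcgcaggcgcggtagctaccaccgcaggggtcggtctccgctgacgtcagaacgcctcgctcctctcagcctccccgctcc
Setd8: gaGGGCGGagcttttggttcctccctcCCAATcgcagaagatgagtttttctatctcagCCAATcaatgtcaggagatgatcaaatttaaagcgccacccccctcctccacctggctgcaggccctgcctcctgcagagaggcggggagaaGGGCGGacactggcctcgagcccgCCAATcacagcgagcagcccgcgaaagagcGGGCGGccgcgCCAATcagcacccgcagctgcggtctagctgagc
Dot1l: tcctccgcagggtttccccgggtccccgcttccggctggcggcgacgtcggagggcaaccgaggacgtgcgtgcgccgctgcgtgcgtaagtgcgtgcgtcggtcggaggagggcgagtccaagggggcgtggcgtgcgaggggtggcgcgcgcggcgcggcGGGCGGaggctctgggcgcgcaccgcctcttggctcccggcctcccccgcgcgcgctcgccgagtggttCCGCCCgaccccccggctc

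The Suv39h1 window of 250 bases holds 2 CCAAT boxes and 1 GC box, and the Suv39h2 window of 205 bases holds 0 CCAAT boxes and 2 GC boxes. The Setd8 window of 250 bases holds 4 CCAAT boxes and 3 GC boxes, and the Dot1l window of 250 bases holds 0 and 2. RefSeq start windows of 300 bases (250 before to 50 after the start) were available for 44 of the 57 members, 57 windows in all because some genes have several starts. A GC box was present in 63.2% of these windows and a CCAAT box in 47.4%, against 35.7% and 37.4% of the 32851 windows of all genes. Those windows belong to 27025 annotated genes, more than the 14495 in the table of counts. The 2 sets are therefore unlike, since the members were all measured here, and they were not matched for expression. GC boxes stood in 5 of 7 windows of members that rose and in 9 of 13 windows of members that fell, and CCAAT boxes in 4 of 7 and 4 of 13. The sequence TTTGAA, known as the CHR element of cell cycle genes, was found in 7.02% of the members' windows and 17.9% of all windows. Both strands were searched, no searched motif contains another, and a match describes the letters of a window and not a bound site.

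Total counts were 15725993, 9104230 and 9295536 in P14 replicates 1 to 3 and 17353933, 13406479 and 5916557 in P1 replicates 1 to 3. Levels are given as CPM, the counts of a gene relative to the library's total, after scaling by the trimmed mean of M-values (TMM), always in the order of replicates 1, 2 and 3. The TMM factors were 0.827 to 0.904 at P14 and 1.00 to 1.28 at P1, and under scaling by library totals alone the median log2 fold change over all genes was −0.47, against −0.01 with TMM. Changes are therefore relative to the bulk of genes, and with totals alone the falls of Prmt1, Prmt3, Smyd2, Setd5, Kdm4c, Kdm5b and Kdm5d were larger (log2 fold changes of −1.45 to −1.08). P1 replicate 2 stood apart in its relation to GC content. Over the 57 members, its deviation from the other P1 libraries had a Spearman's rho of −0.84 with the GC content of the transcript. The values were 0.58 and 0.75 in P1 replicates 1 and 3 and −0.33 to 0.36 in the P14 libraries. The deviations of an age cancel out for each gene, so slopes within an age are tied and opposite signs are not separate results. The 12 members with a GC content of at least 55% had a median deviation of −0.71 (log2) in P1 replicate 2, and the 8 members under 45% had a median deviation of 0.71. P14 replicate 1 also stood apart: it held the lowest P14 value of 34 of the 57 members, and members under 45% GC had a median deviation of −0.58 there. Over all genes it differed from P14 replicates 2 and 3 with a chi-square per degree of freedom of 91.1 and 121, against 12.2 between those 2. The P1 libraries differed as much among themselves, with 95.8 for replicates 1 and 2, 180 for 1 and 3 and 92.4 for 2 and 3. Calls that change without P14 replicate 1 are given beside each gene. Markers of dividing cells, 8 of 8 of which fell, summed to 20.6 to 38.8 CPM at P14 and 355 to 383 CPM at P1. Markers of macrophages summed to 192 to 226 CPM at P14 and 49.5 to 66.2 CPM at P1, with 5 of 6 higher. Markers of heart muscle cells summed to 34734 to 38701 CPM at P14 and 13883 to 18930 CPM at P1, with 4 of 6 higher and 1 lower. Endothelial markers summed to 539 to 600 CPM at P14 and 562 to 625 CPM at P1, with 1 of 6 higher, and fibroblast markers to 1553 to 2237 CPM at P14 and 1209 to 1703 CPM at P1, with 1 of 6 higher. Granulocyte markers, 4 of 4 in the table lower, summed to 5.92 to 8.02 CPM at P14 and 43.7 to 56.6 CPM at P1. Erythroid markers, 4 of 5 in the table higher, summed to 660 to 1005 CPM at P14 and 123 to 320 CPM at P1. Other listed granulocyte, erythroid and epicardial markers were not found in the table of counts. Atrial markers, 2 of 4 lower, summed to 421 to 567 CPM at P14 and 774 to 1634 CPM at P1, and epicardial markers, 2 of 4 tested lower, to 15.1 to 21.8 CPM at P14 and 34.2 to 51.4 CPM at P1. Smooth muscle and pericyte markers, 4 of 6 higher and 2 lower, summed to 1678 to 2096 CPM at P14 and 1725 to 2610 CPM at P1.

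**Figure D1:**
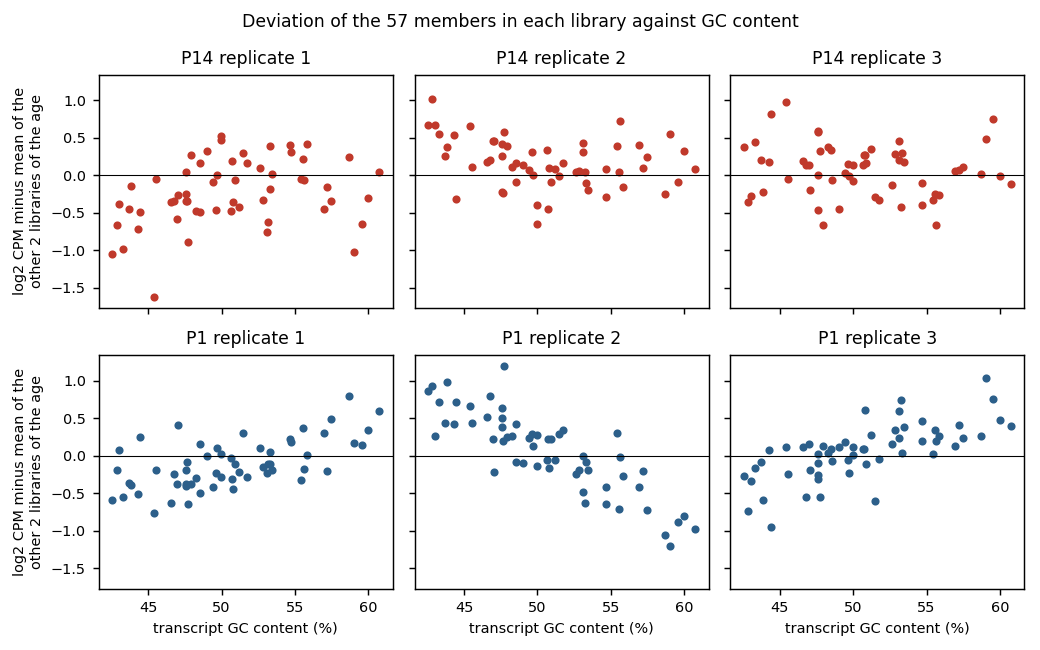
Deviation of each of the 57 members in each library (vertical axis, log2 CPM minus the mean of the other 2 libraries of the same age) against the GC content of its transcript (horizontal axis, percent), with 1 panel per library. In P1 replicate 2 the points slope downwards (Spearman's rho −0.84), while in P1 replicates 1 and 3 they slope upwards (0.58 and 0.75). The deviations of an age cancel out for each gene, so these opposite slopes are not separate results.

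**Figure D2:**
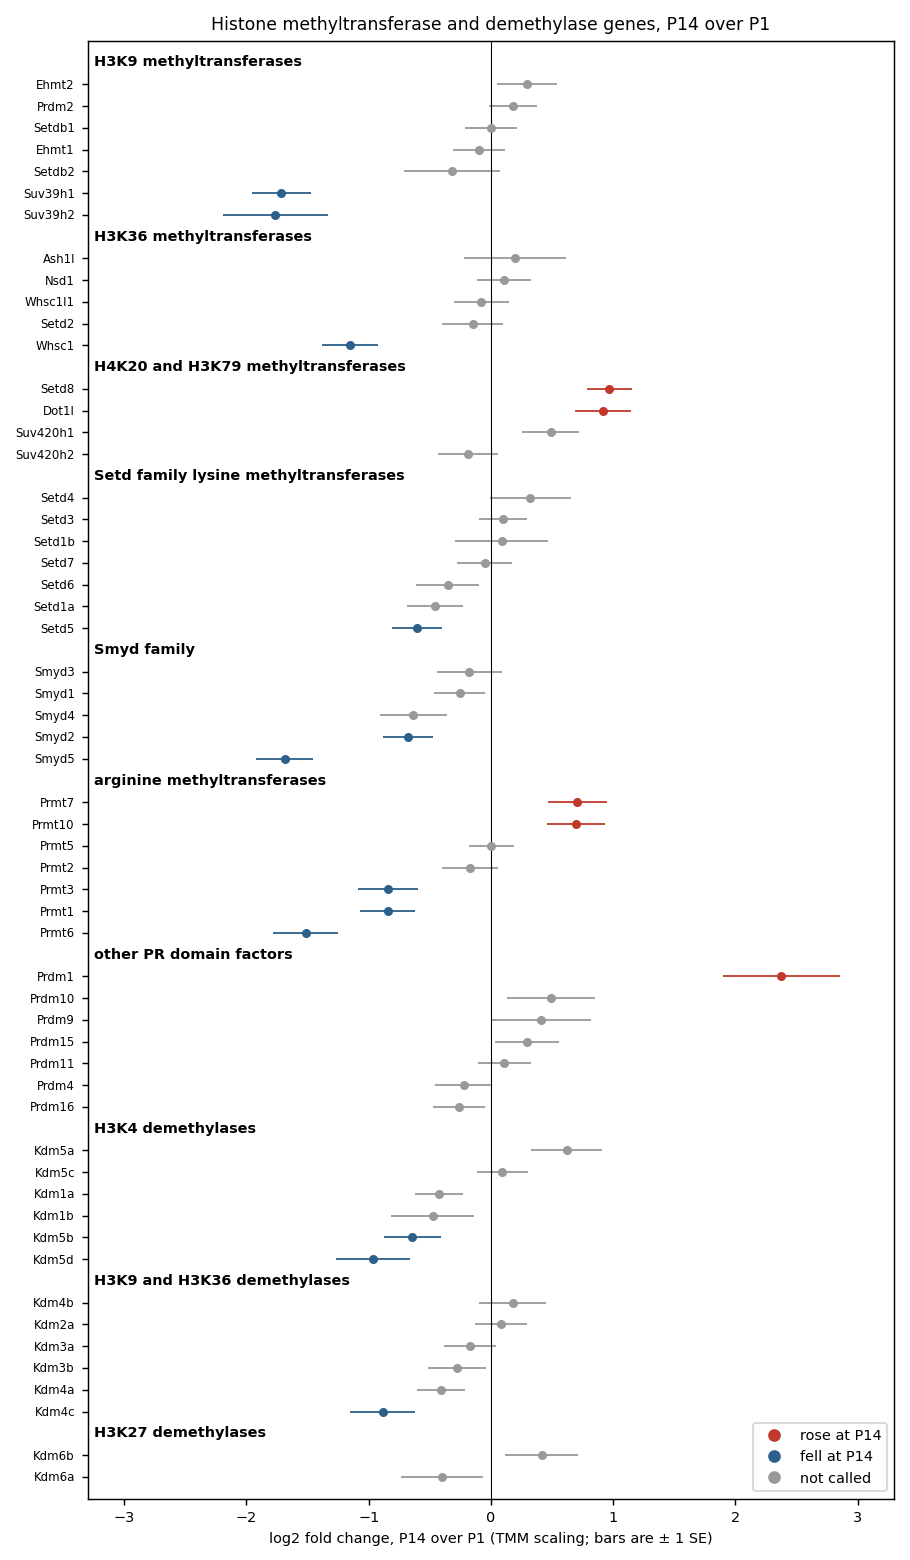
Log2 fold change, P14 over P1, of 56 of the 57 members (horizontal axis, TMM scaling, bars ± 1 SE), grouped by role down the page, with members that rose, fell or were not called in different colours. Prdm1 lies farthest to the right at 2.37, and Suv39h2, Suv39h1, Smyd5, Prmt6 and Whsc1 lie farthest to the left, from −1.77 to −1.16.

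Of the 7 methyltransferases of H3K9, 2 fell and 5 were not called, with a median log2 fold change of −0.10. Suv39h1 (ENSMUSG00000039231, chrX:8061171-8074760, GRCm38), which trimethylates H3K9 in pericentric heterochromatin, had 11.0, 6.37 and 9.14 CPM in the P14 libraries, against 29.5, 27.5 and 31.0 CPM in the P1 libraries. Each of the P1 libraries was above each of the P14 libraries by more than the spread within an age. The means were 8.83 ± 2.32 CPM at P14 and 29.3 ± 1.74 CPM at P1 (SD, n = 3 libraries each), and the log2 fold change was −1.71 ± 0.24 (SE, edgeR adjusted p = 6.38e-05). Suv39h2 (ENSMUSG00000026646, chr2:3455815-3475031), its close relative, had 0.493, 0.797 and 0.515 CPM at P14, against 2.04, 2.22 and 1.68 CPM at P1. These levels rest on 7, 6 and 4 reads at P14 and 44, 38 and 10 reads at P1, and the ages did not overlap. The log2 fold change of Suv39h2 was −1.77 ± 0.43 (edgeR adjusted p = 0.00426). Both falls were called without each of the 6 libraries in turn. The markers of dividing cells given above fell over the same ages, and their part in these falls, and in those of Whsc1, Smyd5, Prmt1 and Prmt6, was not tested. Some Suv39h1 reads may belong to another gene, since 86.2% of its 36-base windows are unique among transcripts and Gm14820 shares windows with it.

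The other H3K9 methyltransferases did not pass the test. Ehmt2, which encodes G9a and dimethylates H3K9 together with the Ehmt1 product GLP, had 75.2, 76.9 and 70.1 CPM at P14, against 75.7, 36.6 and 68.9 CPM at P1. The low value is that of P1 replicate 2, and the transcript has the highest GC content of the members, 60.8%. Its log2 fold change was 0.30 ± 0.24 (edgeR adjusted p = 0.346), and it was −0.25 with offsets for GC content and length. Ehmt1 had a log2 fold change of −0.10 ± 0.21. Setdb1, the H3K9 methyltransferase recruited by Trim28, had 0.00 ± 0.21, and Setdb2, its relative, had −0.32 ± 0.39. Prdm2, also known as Riz1, had 0.18 ± 0.20.

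Of the 5 methyltransferases of H3K36, 1 fell and 4 were not called. Whsc1 (also Nsd2, ENSMUSG00000057406, chr5:33820725-33897975), which dimethylates H3K36, had 18.1, 23.0 and 20.3 CPM at P14, against 37.2, 59.6 and 39.4 CPM at P1. The P14 libraries lay close together and below each P1 library, and P1 replicate 2 was the highest. The log2 fold change was −1.16 ± 0.23 (edgeR adjusted p = 0.00104), and the call held without each library in turn. Whsc1l1 (Nsd3), the closest relative of Whsc1, had 20.5, 33.2 and 28.6 CPM at P14, against 24.1, 31.8 and 30.8 CPM at P1, and the ages overlapped. Nsd1, the most abundant of this group per kilobase, had 62.5, 79.8 and 80.6 CPM at P14, against 50.2, 85.5 and 71.1 CPM at P1. Its log2 fold change was 0.11 ± 0.22 and that of Whsc1l1 was −0.08 ± 0.23. Setd2, which writes H3K36 trimethylation behind RNA polymerase II, had −0.15 ± 0.25, and Ash1l, which dimethylates H3K36, had 0.20 ± 0.42.

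The methyltransferases of H4K20 and H3K79 had a median log2 fold change of 0.70 over 4 members, of which 2 rose and 2 were not called. Each member is counted in 1 group, and Smyd5 and Smyd2, which are known to act on H4K20 and H3K36, are counted with the Smyd family. Setd8 (also Kmt5a or PR-Set7, ENSMUSG00000049327, chr5:124439930-124462308), which monomethylates H4K20, had 74.2, 74.5 and 74.0 CPM at P14, against 39.6, 40.0 and 34.0 CPM at P1. The ages were far apart relative to the spread within each. The rise on the log2 scale was 0.97 ± 0.18 (edgeR adjusted p = 0.000715). Dot1l (ENSMUSG00000061589, chr10:80755206-80795461), the H3K79 methyltransferase, had 79.9, 105 and 98.4 CPM at P14, against 61.1, 34.9 and 54.2 CPM at P1. The lowest value was that of P1 replicate 2, and the GC content of the transcript is 57.5%. The log2 fold change was 0.92 ± 0.23 (edgeR adjusted p = 0.00486), and with offsets for GC content and length it was 0.41 (adjusted p = 0.022). Both rises were called without each library in turn. With library totals alone for scaling the log2 fold changes were 0.50 for Setd8 (adjusted p = 0.0965) and 0.46 for Dot1l (adjusted p = 0.127), so neither call held there. Suv420h1 (Kmt5b) and Suv420h2 (Kmt5c), which carry H4K20 to the dimethylated and trimethylated states, had log2 fold changes of 0.49 ± 0.23 (edgeR adjusted p = 0.103) and −0.19 ± 0.25.

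Counts of these 4 genes made up 9.16%, 11.3% and 11.0% of all member counts in the P14 libraries, against 6.29%, 4.83% and 5.42% in the P1 libraries. This share does not depend on scaling between libraries, and the ages did not overlap. It includes the called Setd8 and Dot1l, so it is not a separate result, and it is relative to the other members, of which Smyd2 and Prmt1 fell. The lowest share was that of P1 replicate 2, which stood apart in its relation to GC content. The mean share of the other PR domain genes, 3.17% at P14 and 2.81% at P1, also came from values without overlap. In the remaining role groups the shares of the ages overlapped.

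**Figure D3:**
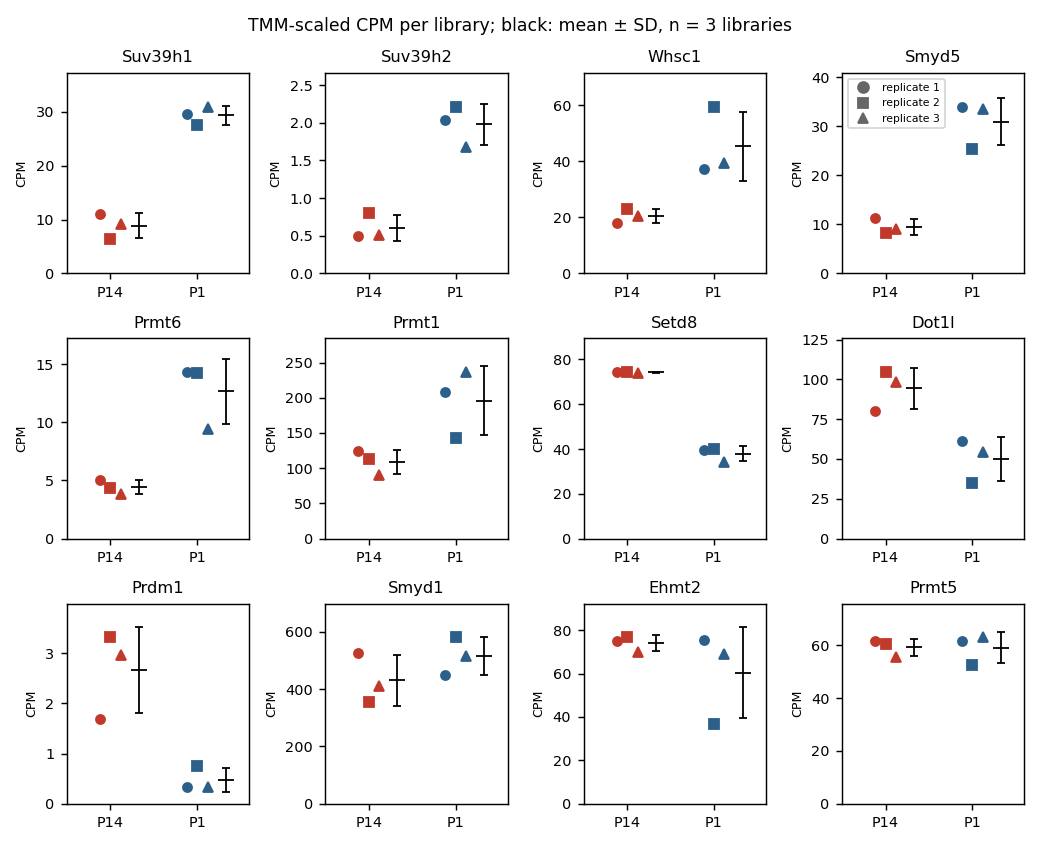
TMM-scaled CPM of selected members in each library (vertical axis, starting at 0; P14 to the left of P1), with 1 panel per gene and the mean ± SD over 3 libraries in black. Suv39h1, Smyd5, Prmt6 and Whsc1 are lower in each P14 library than in each P1 library, and Setd8 and Dot1l are higher.

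Among the 7 genes of the Setd family not placed in the groups above, 1 fell and 6 were not called. Setd5, whose enzyme activity is debated, had 31.7 ± 5.69 CPM at P14 and 48.1 ± 6.11 CPM at P1 (log2 fold change −0.61 ± 0.21, edgeR adjusted p = 0.0285). The call was lost without P14 replicate 1 (−0.46, adjusted p = 0.103), P14 replicate 3 (−0.65, 0.0653) or P1 replicate 3 (−0.61, 0.0699). Setd3, known for methylating a histidine of actin and highest of this group per kilobase, had 29.6, 26.4 and 26.7 CPM at P14, against 27.7, 24.7 and 24.9 CPM at P1. Setd7, which monomethylates H3K4 and many other proteins, had 20.8, 21.8 and 31.9 CPM at P14, against 24.6, 28.0 and 24.4 CPM at P1. In both genes the ages overlapped, and the log2 fold changes were 0.10 ± 0.19 and −0.05 ± 0.22. The catalytic subunits of the SET1 complexes, Setd1a and Setd1b, had −0.46 ± 0.23 (edgeR adjusted p = 0.12) and 0.09 ± 0.38. Reads of Setd1a may be shared with Gm49388, as 48.3% of its 36-base windows are unique. Setd4 had 0.32 ± 0.33 and Setd6, known from methylation of the NF-κB subunit RelA, had −0.35 ± 0.26.

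The 5 genes of the Smyd family had the lowest median of the role groups, −0.64, with 2 members that fell and 3 that were not called. Each of the 5 log2 fold changes was below 0, as were those of 33 of the 57 members and 7205 of the 14301 tested genes. A trait of the family was not tested. Smyd5 (ENSMUSG00000033706, chr6:85431989-85446435), known as an H4K20 methyltransferase of mouse embryonic stem cells, had 11.3, 8.23 and 9.01 CPM at P14, against 34.0, 25.4 and 33.5 CPM at P1. The ages were separated by more than the range within either. On the log2 scale it fell by 1.69 ± 0.23, with the smallest adjusted p of the members (edgeR adjusted p = 5.46e-05). Smyd2 (ENSMUSG00000026603, chr1:189880492-189922363), which methylates H3K36, p53 and, in muscle, the chaperone Hsp90, had 299, 229 and 218 CPM at P14, against 399, 349 and 447 CPM at P1. The ages did not overlap, and the log2 fold change was −0.68 ± 0.20 (edgeR adjusted p = 0.0154). The call on Smyd2 was lost without P14 replicate 2 (−0.62, adjusted p = 0.0803), P14 replicate 3 (−0.59, 0.0796) or P1 replicate 3 (−0.57, 0.0651), and 73.8% of its 36-base windows are unique.

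Smyd1, the heart and skeletal muscle member, had 527, 353 and 410 CPM at P14, against 448, 581 and 514 CPM at P1. The highest P14 library lay among the P1 libraries, and the log2 fold change was −0.26 ± 0.21 (edgeR adjusted p = 0.348). The heart muscle marker sum was higher at P14 over the same libraries, with 4 of 6 markers higher. Of the others, Actn2 was not called (log2 fold change 0.35 ± 0.22) and Nppa fell (−1.43 ± 0.29). Levels of these markers may also change within a cell, and the share of heart muscle cells was not tested. Smyd4 had a log2 fold change of −0.64 ± 0.27 and did not pass the test (edgeR adjusted p = 0.0725), although its P14 and P1 values did not overlap. With the replicate number as a block its adjusted p was 0.0477. Smyd3, known as a cytoplasmic kinase methyltransferase and H3K4 methyltransferase in tumour cells, had −0.18 ± 0.26.

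The 7 arginine methyltransferases moved in both directions, with 2 higher, 3 lower and 2 not called. Prmt1 (ENSMUSG00000052429, chr7:44975989-44986568), the main enzyme of asymmetric arginine dimethylation, had 125, 112 and 90.1 CPM at P14, against 209, 142 and 237 CPM at P1. The lowest P1 value was that of replicate 2 and still lay above each P14 value. The log2 fold change was −0.84 ± 0.22 (edgeR adjusted p = 0.00746). Prmt6 (ENSMUSG00000049300, chr3:110246109-110250998), which dimethylates H3 at arginine 2, had 5.07, 4.38 and 3.86 CPM at P14, against 14.3, 14.2 and 9.43 CPM at P1. The ages did not overlap, and the log2 fold change was −1.52 ± 0.27 (edgeR adjusted p = 0.00044). Both of these falls were called without each library in turn. For Prmt6, 77.2% of the 36-base windows are unique, and C130013H08Rik on the opposite strand shares windows with it. Prmt3, which methylates a protein of the small ribosomal subunit, had 10.2 ± 2.05 CPM at P14 and 18.2 ± 3.86 CPM at P1. Its log2 fold change was −0.84 ± 0.25 (edgeR adjusted p = 0.013), and without P14 replicate 3 it was −0.70 (adjusted p = 0.0757). With offsets for GC content and length it was −0.53 (adjusted p = 0.0263).

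Prmt7, the monomethylating member, had 68.6 ± 12.7 CPM at P14 and 42.4 ± 13.9 CPM at P1, and Prmt10 (Prmt9), which symmetrically dimethylates a splicing factor, had 24.7 ± 6.05 CPM at P14 and 15.3 ± 2.25 CPM at P1. Their log2 fold changes were 0.71 ± 0.24 (edgeR adjusted p = 0.0286) and 0.70 ± 0.24 (0.0296). The ages overlapped for Prmt7, where P14 replicate 3 with 55.6 CPM lay below P1 replicate 3 with 57.8 CPM. The call on Prmt7 was lost without P14 replicate 1 (0.57, adjusted p = 0.111), P14 replicate 2 (0.70, 0.0811) or P1 replicate 1 (0.65, 0.0662). The call on Prmt10 was lost without P14 replicate 1 (0.62, adjusted p = 0.0906), P14 replicate 2 (0.57, 0.139), P1 replicate 1 (0.57, 0.101) or P1 replicate 3 (0.75, 0.0557). With library totals alone for scaling the log2 fold changes were 0.29 for Prmt7 (adjusted p = 0.358) and 0.24 for Prmt10 (adjusted p = 0.5). Prmt5, the main symmetric arginine methyltransferase, had 61.6, 60.4 and 55.5 CPM at P14, against 61.7, 52.5 and 63.1 CPM at P1. The log2 fold change of Prmt5 was 0.00 ± 0.18 (edgeR adjusted p = 0.993), and that of Prmt2 was −0.17 ± 0.23.

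Of the 8 other PR domain genes, 1 rose and 7 were not called. Prdm1 (ENSMUSG00000038151, chr10:44437177-44528501), which encodes Blimp-1, a repressor known from plasma cells, other blood cells and germ cell precursors, had 1.69, 3.32 and 2.96 CPM at P14, against 0.324, 0.758 and 0.337 CPM at P1. The ages did not overlap, but the values rest on 24, 25 and 23 reads at P14 and 7, 13 and 2 reads at P1. The fitted log2 fold change was 2.37 ± 0.48 (edgeR adjusted p = 0.0012), and the call held without each library in turn. Macrophage markers rose over the same ages, as given above. Of the listed lymphocyte markers only 2 were in the table of counts, the B cell gene Cd79b and the general leukocyte gene Ptprc. These 2 summed to 6.05 to 8.63 CPM at P14 and 2.19 to 2.86 CPM at P1. Cd79b rests on 45, 28 and 16 reads at P14 and 27, 20 and 6 reads at P1. The erythroid and granulocyte markers given above moved as well. The part of these cell types in the result was not tested. Prdm11, the highest of this group per kilobase, had 15.8, 17.8 and 17.5 CPM at P14, against 14.3, 14.3 and 19.0 CPM at P1, and the ages overlapped.

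Prdm16, known from brown fat and from cardiomyopathy, had a log2 fold change of −0.26 ± 0.21 and did not pass the test, although its P14 and P1 values did not overlap. Prdm4 had −0.22 ± 0.23, Prdm10 had 0.49 ± 0.36 and Prdm15 had 0.29 ± 0.26. Prdm9, which marks recombination sites in meiosis, averaged 1.58 ± 0.211 CPM at P14 and 1.13 ± 0.391 CPM at P1, with a log2 fold change of 0.41 ± 0.41.

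None of the 14 demethylases rose in the test and 3 fell. Of the 35 genes grouped as lysine and arginine methyltransferases, 4 rose and 9 fell. That group leaves out the PR domain genes other than Prdm2, and it includes Setd3 and Setd5. The median log2 fold change was −0.34 over the demethylases and −0.15 over the methyltransferase group. Of all genes tested, 21.8% were called higher and 22% lower, and a difference between the classes was not tested. Of the 6 demethylases of H3K4, 2 fell. Kdm5b, a JmjC demethylase of trimethylated H3K4, had 16.1, 17.0 and 24.6 CPM at P14, against 24.6, 35.4 and 30.0 CPM at P1. The highest P14 library reached the lowest P1 library, and the log2 fold change was −0.64 ± 0.23 (edgeR adjusted p = 0.0375). The call was lost without P14 replicate 1 (−0.52, adjusted p = 0.131), P14 replicate 2 (−0.56, 0.148), P1 replicate 2 (−0.50, 0.066) or P1 replicate 3 (−0.63, 0.0932). Kdm5d, its relative on the Y chromosome, had 6.20 ± 0.959 CPM at P14 and 11.9 ± 5.09 CPM at P1 (log2 fold change −0.96 ± 0.30, edgeR adjusted p = 0.0193). The call on Kdm5d was lost without P14 replicate 1 (−0.90, adjusted p = 0.0703), P14 replicate 3 (−0.89, 0.0742) or P1 replicate 2 (−0.55, 0.0828), and P1 replicate 2 held the highest value, 17.8 CPM.

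Kdm5a, which demethylates the same mark, had 25.8, 52.2 and 49.8 CPM at P14, against 20.7, 37.2 and 24.8 CPM at P1. The ages overlapped, and the log2 fold change was 0.62 ± 0.29 (edgeR adjusted p = 0.101). With the replicate number as a block the adjusted p of Kdm5a was 0.0173. Kdm5a was also called as higher without P14 replicate 1 or without P1 replicate 2. Kdm5c, on the X chromosome, had 0.09 ± 0.21. Kdm1a, which encodes LSD1 and acts with the CoREST proteins, had 51.0, 51.3 and 40.8 CPM at P14, against 55.7, 74.4 and 62.1 CPM at P1. Its P14 and P1 values did not overlap, but the log2 fold change of −0.42 ± 0.20 did not pass the test (edgeR adjusted p = 0.0945). Kdm1b (LSD2) had −0.48 ± 0.34.

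Of the 6 demethylases of H3K9 and H3K36, 1 fell. Kdm4c, a demethylase of trimethylated H3K9 and H3K36, had 4.57, 6.37 and 6.18 CPM at P14, against 8.74, 12.7 and 9.93 CPM at P1. Its log2 fold change was −0.89 ± 0.27 (edgeR adjusted p = 0.015), and without P14 replicate 1 it was −0.73 (adjusted p = 0.0635). With offsets for GC content and length it was −0.57 (adjusted p = 0.0294). Kdm4a, which acts on the same marks, had 36.6, 33.2 and 39.4 CPM at P14, against 44.2, 44.2 and 57.4 CPM at P1. The ages did not overlap, but the log2 fold change of −0.41 ± 0.20 did not pass the test (edgeR adjusted p = 0.103). Kdm4b had 0.18 ± 0.27, and the H3K36 demethylase Kdm2a had 0.08 ± 0.21. The H3K9 demethylases Kdm3a and Kdm3b had −0.17 ± 0.21 and −0.28 ± 0.24.

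Neither of the 2 demethylases of H3K27 passed the test. Kdm6a, the X-linked UTX, had 4.86, 10.8 and 9.40 CPM at P14, against 7.86, 15.3 and 9.09 CPM at P1. Kdm6b, also JMJD3, had 15.3, 19.8 and 29.1 CPM at P14, against 16.5, 10.3 and 21.9 CPM at P1. The spread within each age was as wide as the difference between ages for both genes. P1 replicate 2 held the highest P1 value of Kdm6a, whose transcript has a GC content of 42.5%, and the lowest of Kdm6b, with 59.6%. The log2 fold changes were −0.40 ± 0.34 (edgeR adjusted p = 0.357) and 0.41 ± 0.30 (adjusted p = 0.286), and with offsets for GC content and length that of Kdm6b was −0.21.

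The P14 and P1 values did not overlap for 20 members (35.1%), 4 higher and 16 lower at P14, against 54.8% of all genes, 27.3% higher and 27.5% lower. For 38 members the fitted change was smaller than 1.5-fold in either direction. The standard error of a member's log2 fold change was 0.18 to 0.48, with a median of 0.24, and the largest change that was not called was 0.64 in size. A member that was not called is therefore not shown to be at the same level at both ages.

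Levels of different members were compared as CPM per kilobase of the principal transcript. Smyd2 and Smyd1 had the highest levels, 148 and 131 CPM per kilobase at P14 and 237 and 156 CPM per kilobase at P1. Prmt1 was next, with 72.3 CPM per kilobase at P14 and 130 CPM per kilobase at P1. Setd8 took rank 4 at P14, with 27.1 CPM per kilobase, and rank 9 at P1, with 13.8 CPM per kilobase. Dot1l took rank 9 at P14, with 13.9 CPM per kilobase, and rank 15 at P1, with 7.35 CPM per kilobase. The lowest levels were 0.139 CPM per kilobase for Suv39h2 at P14 and 0.117 CPM per kilobase for Prdm1 at P1. The median level of the 57 members was 3.89 CPM per kilobase at P14 and 4.49 CPM per kilobase at P1, and 11 members exceeded 10 CPM per kilobase at each age. Spearman's rho between the levels at P14 and at P1 was 0.91 over the 57 members, which share the same libraries.

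**Figure D4:**
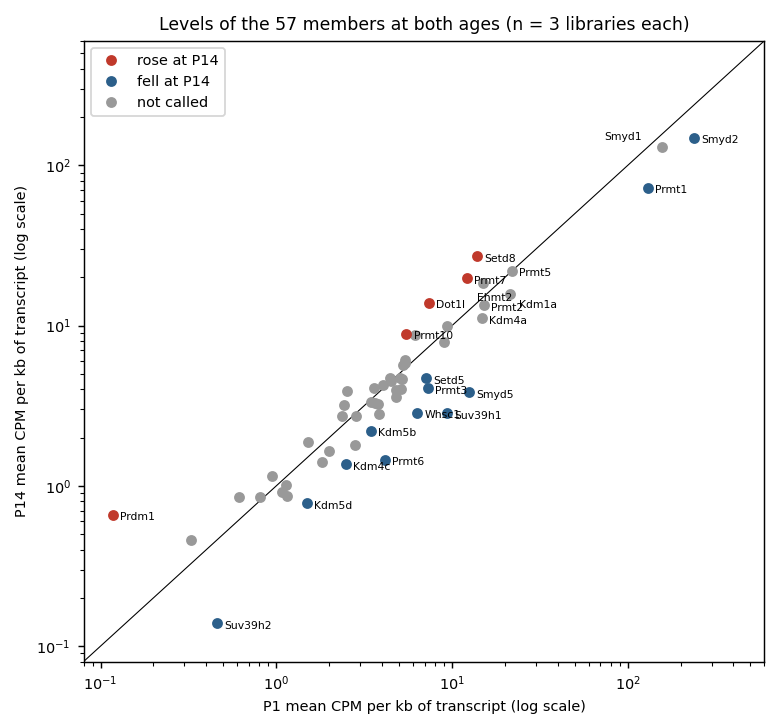
Mean level of each of the 57 members at P14 against its mean level at P1 (log axes, CPM per kilobase of transcript, n = 3 libraries each), coloured by call. Most points lie near the line of equal levels, with Smyd2, Smyd1 and Prmt1 at the upper end and Prdm1 and Suv39h2 at the lower end.

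Counts of Smyd1, Smyd2 and Prmt1 together made up 44.6%, 33.5% and 34.7% of all member counts at P14, against 45.8%, 44.8% and 46.6% at P1. The share of Smyd2 was 14.0%, 11.1% and 10.5% at P14, against 17.3%, 14.6% and 17.4% at P1, and that of Prmt1 was 5.84%, 5.42% and 4.36% at P14, against 9.06%, 5.94% and 9.22% at P1. For both genes the ages did not overlap. The share of Smyd1 was 17.0% to 24.7% at P14, against 19.5% to 24.3% at P1, and here they did. For every 100 counts of methyltransferases there were 16.2, 20.9 and 22.6 counts of demethylases at P14, against 17.5, 20.4 and 17.9 at P1. Without Smyd1, Smyd2 and Prmt1 the counts of demethylases per 100 were 34.6, 36.0 and 40.4 at P14, against 39.3, 45.8 and 41.1 at P1. The ages overlapped in both ratios, which leaned in opposite directions.

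Related genes were also compared as ratios within each library, which do not depend on scaling between libraries. For 12 pairs of relatives the exact permutation test over 3 against 3 libraries (two-sided) cannot give a p below 0.1, so no ratio could pass a threshold of 0.05. The ratio of Kdm5b to Kdm5a was 0.628, 0.329 and 0.496 in the P14 libraries, against 1.18, 0.953 and 1.21 in the P1 libraries. The ages did not overlap. Transcript lengths differ between relatives, so a ratio of 1 does not mean equal levels. The ratio of Whsc1 to Whsc1l1 was 0.884, 0.694 and 0.714 at P14, against 1.55, 1.87 and 1.28 at P1, also without overlap. Per kilobase, Whsc1 had 2.87 CPM and Whsc1l1 had 2.71 CPM at P14, against 6.36 CPM and 2.86 CPM at P1. The mean differences of the log2 ratios were −1.24 and −1.02 (each exact permutation p = 0.1, the smallest the design allows). The ratio of Kdm6a to Kdm6b was 0.324, 0.550 and 0.329 at P14, against 0.480, 1.49 and 0.424 at P1, where the high value is that of P1 replicate 2. That of Suv39h1 to Suv39h2 was 17.6, 6.25 and 12.2 at P14, against 13.9, 11.9 and 15.5 at P1, with overlapping ages.

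**Figure D5:**
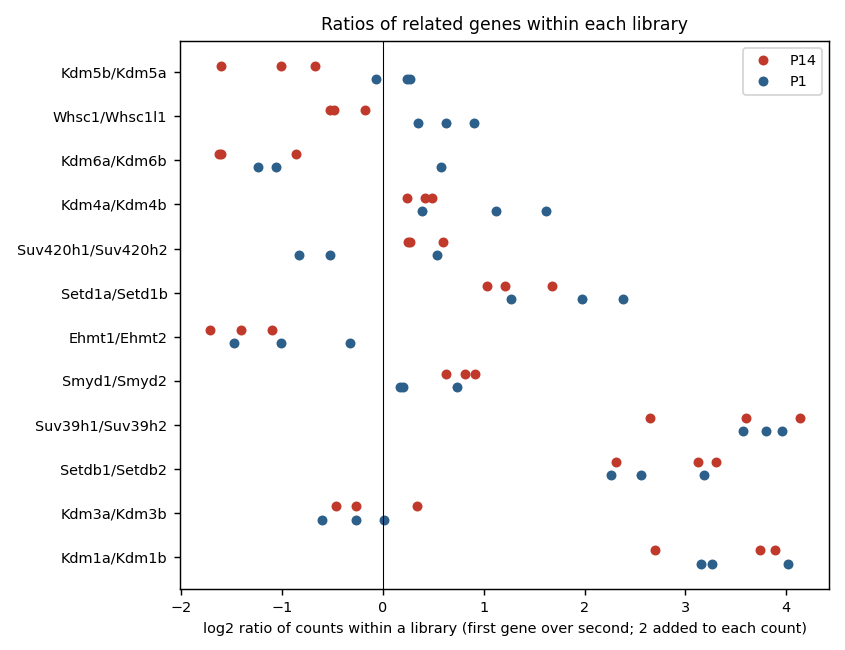
Log2 ratio of counts within each library (horizontal axis, first gene over second, with 2 added to each count) for 12 pairs of related genes, with P14 libraries above P1 libraries in each row. The P14 points lie to the left of the P1 points without overlap for Kdm5b over Kdm5a and for Whsc1 over Whsc1l1.

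Partners of these enzymes were taken from a list of complex subunits, readers, other enzymes and genes of the methyl donor cycle, of which 60 of 61 were in the table. Of these, 8 rose, 21 fell and 31 were not called, with a median log2 fold change of −0.15. The median was 0.019 without P14 replicate 1 and 0.061 without P1 replicate 2. These counts, and those of the parts of the list below, stand beside 21.8% of all genes called higher and 22% called lower. The 4 called partners with the largest change were Hr, Cbx3, Cdyl and Btg1. Hr, the hairless JmjC demethylase and nuclear receptor corepressor, had 30.5, 19.7 and 21.5 CPM at P14, against 1.62, 1.40 and 1.35 CPM at P1. Its rise (log2 fold change 4.01 ± 0.29, edgeR adjusted p = 2e-07) was larger than that of any of the 57 members.

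Among readers and partners of H3K9 methylation 1 of 9 rose and 4 fell. Cbx3, which encodes heterochromatin protein HP1γ, averaged 1.00 ± 0.0775 CPM at P14 and 4.28 ± 0.678 CPM at P1 (log2 fold change −2.09 ± 0.35, edgeR adjusted p = 0.000313). Of its 36-base windows 90.5% are unique. Cdyl, a chromodomain corepressor, averaged 3.13 CPM at P14 and 9.29 CPM at P1, with a change of −1.59 ± 0.32 (edgeR adjusted p = 0.0012). Among partners of the arginine methyltransferases 1 of 7 rose and 3 fell, and Btg1, a cofactor of PRMT1, averaged 10.4 CPM at P14 and 28.8 CPM at P1 (log2 fold change −1.46 ± 0.23, edgeR adjusted p = 0.000142).

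In the list of the MLL and SET1 complexes, which methylate H3K4, and of the MLL relative Mll5, 3 of 15 genes rose and 5 fell, all named here after their values were seen. Those that rose were Mll1, Mll2 and Mll5, with 41.4, 71.8 and 57.2 CPM at P14, against 15.8, 31.2 and 29.5 CPM at P1. Those that fell were Wdr82, Paxip1, Hcfc1, Dpy30 and Ncoa6, with 55.5, 13.7, 45.4, 40.6 and 23.4 CPM at P14, against 127, 23.8, 75.3, 64.4 and 35.8 CPM at P1. Mll5 is not established as an H3K4 methyltransferase, and Mll1 and Mll2 carry this activity. Among partners of LSD1 1 of 7 rose and 4 fell, and of the methyl donor genes none of 5 rose and 3 fell. Of the partners of DOT1L none of 6 rose and 1 fell, and of the other JmjC demethylases 2 of 8 rose, Hr and Jhdm1d, and none fell. Of the remaining 3 partners 1 fell.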

How the data were processed

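Per the labels' protocols, poly(A)-selected ventricle RNA was sequenced for 36 cycles on a Genome Analyzer IIx. The authors deposited raw counts of reads for 14495 genes in the 6 libraries, each gene with at least 60 counts in total. Bedtools, edgeR 3.2.4 and build GRCm38 (mm10) are named, per the submitters' processing notes, without a role. The aligner, counter and annotation, and whether strand was used in counting, were not given in the sources used here. Exons of 20 members overlap a gene on the opposite strand, Suv39h2, Whsc1 and Kdm6b among them, and their reads cannot be told apart without strand. Of the members, 7 had fewer than 90% unique 36-base windows.

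In R 4.3.3, edgeR 4.0.16 was run on the counts (filterByExpr, minimum count 10, 14301 genes kept and 194 removed; TMM scaling; robust quasi-likelihood F-test, two-sided, with no term but age). Genes were called at a Benjamini-Hochberg adjusted p under 0.05 over all tested genes. Standard errors were obtained from the coefficient and its F statistic, and the common biological coefficient of variation was 23%. The procedure was tested on simulated data. Positions, lengths and GC content came from GENCODE M21 (GRCm38), with 56 members matched by identifier and Prmt1 by symbol. Columns were tied to samples by the age and replicate number in the column names. No 2 libraries of an age agreed within sampling noise (lowest chi-square per degree of freedom 12.2).

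Alternatives were DESeq2 size factors or library totals alone for scaling, no filter or over 5 CPM in 3 libraries, DESeq2 1.42.0, the replicate number as a block, offsets for GC content and length (spline, 4 degrees of freedom), block and offsets together, and leaving out each library. As a check of pairing, P14 and P1 libraries of equal replicate number were correlated in their deviations from their age's mean (0.295, 0.112 and 0.102). By the rule that every value exceeds 0.1 the numbers would pair the libraries, but the labels state no pairing. Libraries of unequal number gave −0.214 to 0.09, so the values of replicates 2 and 3 lay close to the highest of these. The main test and the permutation test used no pairing, and the block was run only as an alternative. Ratios of relatives had 2 added to each count (alternatively 0.5).

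The members, lists and tests were chosen with earlier results of these data known. Every member but 1, which is not reported here, is named; values in all libraries are given for 24, namely members called with a log2 fold change of at least 1 in size, the highest per kilobase in each role group, the pairs with the 3 largest ratio changes, and Smyd1, Setd7, Kdm6a, Kdm6b, Dot1l, Ehmt2, Prmt1 and Prmt5. Those of Kdm4c were added after its values were seen. Of partners at most 4 are named by this rule, those with the largest change, and others only to show a small count.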

Additional observations from a re-analysis of the deposited data

How the results depend on the processing

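DESeq2 size factors for scaling, no filter and the DESeq2 test changed no member's call or direction, and no called member changed direction under any alternative. Over 5 CPM in 3 libraries removed 6 members (Suv39h2, Prdm1, Prdm9, Prdm10, Setd4 and Setdb2) and turned 2 members near 0, Setdb1 −0.014 and Prmt5 −0.013. Library totals alone for scaling called 1620 genes higher and 5592 lower at P14 (22.5% of calls higher, against 49.7%), with a median log2 fold change of −0.47. The members then had 1 higher, 28 lower and a median of −0.62, and the partners 4 higher, 29 lower and a median of −0.63; relative to the median of all genes the members' median was −0.15, against −0.16 with TMM. With totals alone the calls on Setd8, Dot1l, Prmt7 and Prmt10 ended and uncalled members turned: Ehmt2 −0.15, Prdm15 −0.18, Setdb1 −0.46, Kdm6b −0.028, Nsd1 −0.36, Setd4 −0.15, Prmt5 −0.45, Kdm4b −0.27, Kdm5c −0.36, Ash1l −0.29, Setd1b −0.35, Prdm9 −0.079, Kdm2a −0.39, Setd3 −0.37, Prdm2 −0.29 and Prdm11 −0.34.

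Offsets for GC content and length gave 7 members higher and 19 lower and 14 partners higher. Kdm5a (0.65) and Suv420h1 (0.78) then rose, and Prmt2 (−0.41), Setd6 (−0.67), Kdm4a (−0.47), Kdm3b (−0.45), Prdm16 (−0.51), Setd1a (−0.93) and Suv420h2 (−0.68) fell. Uncalled in the main test and turned were Ehmt2 −0.25, Kdm6b −0.21, Kdm4b −0.27, Kdm5c −0.037, Setd7 0.070, Setd1b −0.59, Kdm3a 0.11, Setdb2 0.055 and Prdm11 −0.26. The replicate block called Kdm5a and Smyd4 as well, 6 members higher and 13 lower, and changed no other member's call. The block with these offsets gave 20 members lower and 15 partners higher, and turned Ehmt2 −0.24, Kdm6b −0.24, Kdm4b −0.26, Kdm5c −0.039, Setd7 0.053, Setd1b −0.60, Kdm3a 0.12, Setdb2 0.076 and Prdm11 −0.24, of which Setd1b was called lower (adjusted p = 0.0451). The cause was not tested.

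Leaving out 1 library gave 2387 to 3401 genes higher and 2269 to 3309 lower at P14 over all genes. The members had 3 to 7 higher, 8 to 13 lower and a median of −0.18 to −0.053, and the partners had 6 to 11 higher, 14 to 20 lower and a median of −0.17 to 0.061. The direction of 13 members that were not called turned in at least 1 of these, with log2 fold changes of Ash1l −0.11 to 0.58, Ehmt1 −0.22 to 0.042, Kdm2a −0.047 to 0.23, Kdm4b −0.11 to 0.48, Kdm5c −0.0067 to 0.23, Nsd1 −0.082 to 0.30, Prmt5 −0.078 to 0.066, Setd1b −0.24 to 0.45, Setd2 −0.34 to 0.067, Setd7 −0.27 to 0.070, Setdb1 −0.13 to 0.092, Setdb2 −0.71 to 0.044 and Whsc1l1 −0.24 to 0.10. Among the ratios, the log2 difference was −0.65 to 0.096 for Suv39h1 over Suv39h2, −0.26 to 0.34 for Kdm1a over Kdm1b and −0.075 to 0.33 for Kdm3a over Kdm3b. Suv39h2, Prdm1 and Prdm9 rest on 2 to 44 reads per library.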
